A study of Homo sapiens with 6 samples.

Results

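The AP-1 genes JUN, JUNB, JUND, FOS, FOSB, FOSL1, FOSL2, ATF3, JDP2 and BATF3 were followed in 6 RNA-seq libraries of EoL-1, a long-established human cell line derived from eosinophilic leukaemia. The 10 members were chosen by name, out of 35052 genes with summed estimated reads, and all 10 were among the 12954 genes that passed a filter on low counts. Of the libraries, 3 carried the genotype label JUN knockout and 3 the label ATF3/JUN double knockout, so the controls carried a JUN knockout by label as well, and no unedited cells were analysed here. Library names call each pair of same-numbered libraries, 1 from each group, by the same JUN clone code, and each double knockout library also has an ATF3 code of its own. The comparison could therefore ask whether other family members were higher when the ATF3 knockout was added to that of JUN, and not what the JUN knockout did. The protocol text of all 6 libraries names CRISPR/Cas9 editing of ATF3, also for those with the JUN label alone, and the genotype label was used to set the groups. No source used here says whether the libraries of a group were separate cultures, so p-values measure the spread between these libraries, which may be partly technical.

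AP-1 is a dimer of proteins with a basic region, which touches DNA, and a leucine zipper, which holds the partners together. JUN, JUNB and JUND can pair with themselves, with each other or with a FOS protein, while FOS, FOSB, FOSL1 and FOSL2 need a JUN partner to bind DNA well. ATF3, JDP2 and BATF3 belong to the wider family and can pair with JUN proteins, and ATF3 and JDP2 are known mainly as repressors. In blood cells AP-1 is known for the response to growth factors, cytokines and stress.

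The stretch of coding sequence for the basic region is printed for the JUN family and for ATF3, JDP2 and BATF3, because it encodes the part by which these proteins touch DNA and shows how alike the remaining genes and the targeted ones are there. Each is 48 bases, 5′ to 3′, from the transcript named, read from GENCODE release 29, with capitals at the bases that are the same in all members of its group.
JUN (JUN-201, bases 2041 to 2088): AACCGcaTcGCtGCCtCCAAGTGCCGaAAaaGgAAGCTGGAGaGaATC
JUNB (JUNB-201, bases 1108 to 1155): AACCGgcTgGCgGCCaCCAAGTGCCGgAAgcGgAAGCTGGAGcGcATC
JUND (JUND-201, bases 970 to 1017): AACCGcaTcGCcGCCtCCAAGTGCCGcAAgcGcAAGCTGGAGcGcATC
ATF3 (ATF3-202, bases 551 to 598): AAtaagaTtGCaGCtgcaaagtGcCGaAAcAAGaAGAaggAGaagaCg
JDP2 (JDP2-201, bases 470 to 517): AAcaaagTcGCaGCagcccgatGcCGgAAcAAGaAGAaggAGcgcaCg
BATF3 (BATF3-201, bases 356 to 403): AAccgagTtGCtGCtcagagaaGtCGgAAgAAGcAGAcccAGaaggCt

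In the JUN family 37 of the 48 bases were the same in all 3 genes, and in the group of ATF3, JDP2 and BATF3 21 of 48 were. The corresponding stretch of the 4 FOS genes shared 31 of 48. Even so, none of the 45 pairs of members shared an unbroken run of 31 bases in any annotated transcript. The longest shared run was 23 bases. JUN shared at most 20 bases with JUNB and 19 with JUND, so a read covering more than that could in principle be told apart.

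The libraries held 26146998 to 29567970 estimated reads, and their gene levels correlated at a Spearman coefficient of 0.979 to 0.994 across genes. The labelled cell type was eosinophil, but 6 of 13 eosinophil markers (CLC, PRG3, EPX, IL5RA, IL1RL1 and GATA1) were listed at 0 in all 6 libraries, and 3 of the 13 passed the filter on low counts. The summed eosinophil marker level was 74.3 to 198 TPM in the JUN knockout and 124 to 190 TPM in the double knockout. The monocyte marker sum, which was mostly LYZ with FCGR3A listed at 0, was 120 to 290 TPM and 140 to 334 TPM. It was lowest in JUN knockout library 1 and double knockout libraries 1 and 2.

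The mRNAs of both targeted genes were still measured in every library. JUN (ENSG00000177606, chromosome 1, 58780788 to 58784327, minus strand, GRCh38) stood at 3.73, 6.96 and 6.15 TPM in JUN knockout libraries 1, 2 and 3, in that order, against 3.64, 4.55 and 6.54 TPM in double knockout libraries 1, 2 and 3. TPM is a level scaled for transcript length and library size, so it allows genes to be compared. The groups overlapped, and library 1 was the lowest of each group. ATF3 (ENSG00000162772, chromosome 1, 212565334 to 212620777, plus strand) was at 14.8, 6.87 and 4.55 TPM in the JUN knockout libraries, against 9.00, 5.57 and 4.96 TPM in the double knockout. Library 1 was the highest of each group and the groups overlapped again. CRISPR edits can end a protein while its mRNA remains, and these levels check neither edit. In bulk RNA, fewer cells with an mRNA and less of it per cell cannot be told apart.

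In the JUN family, most mRNA came from JUND, which is known for steady expression in resting cells. JUND (ENSG00000130522, chromosome 19, 18279760 to 18281622, minus strand) was at 373, 354 and 322 TPM in the JUN knockout libraries, against 416, 370.3 and 372 TPM in the double knockout. It was above 98.1% of the tested genes in mean level. JUNB (ENSG00000171223, chromosome 19, 12791496 to 12793315, plus strand), which can stand in for JUN at some sites and oppose it at others, was at 50.6, 51.5 and 44.9 TPM and at 55.5, 54.0 and 46.6 TPM. For both genes library 3 was the lowest of the JUN knockout and the groups overlapped. JUND made up 85.8% to 87.6% of the JUN family's summed TPM, JUNB 10.9% to 12.6% and JUN 0.767% to 1.69%. JUND was 50.9-fold to 114-fold above JUN within a library. These shares and folds include 87.7 to 103 TPM from JUND-202, a transcript of 500 bases with 4.25% to 5.58% of JUND's reads. JUND-201 alone was at 235 to 324 TPM. The family's sum was 405 ± 27.9 TPM in the JUN knockout and 443 ± 27.8 TPM in the double knockout (SD, n = 3 each).

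Among FOS proteins, FOSL2 led. FOSL2 (ENSG00000075426, chromosome 2, 28392448 to 28417312, plus strand), which encodes FRA-2, was at 57.3, 37.4 and 27.8 TPM in the JUN knockout libraries, against 47.7, 66.1 and 37.9 TPM in the double knockout. FOSL2 was highest in double knockout library 2 and lowest in JUN knockout library 3, and it made up 69.0% to 85.7% of the FOS family's sum. FOS (ENSG00000170345, chromosome 14, 75278774 to 75282230, plus strand), the classic immediate early gene, was at 5.97, 6.36 and 5.11 TPM and at 3.94, 6.45 and 5.31 TPM. FOSL1 (ENSG00000175592, chromosome 11, 65892049 to 65900573, minus strand), which encodes FRA-1, was at 3.58, 7.02 and 7.18 TPM and at 3.89, 5.48 and 8.47 TPM. FOSL1, like JUN, was lowest in library 1 of each group, and the groups overlapped for FOS, FOSL1 and FOSL2. FOSB (ENSG00000125740, chromosome 19, 45467995 to 45475179, plus strand) rested on 20, 22 and 17 reads in the JUN knockout libraries against 12, 19 and 31 in the others, or 0.151 to 0.306 TPM. The groups overlapped, and at this depth no difference in FOSB was detectable (edgeR adjusted p = 0.987). The JUN family's sum was 5.48-fold to 9.28-fold that of the FOS family in each library.

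Of the 3 smaller partners, JDP2 was the most abundant. JDP2 (ENSG00000140044, chromosome 14, 75427716 to 75474111, plus strand), a repressor that pairs with JUN proteins, was at 39.0, 31.2 and 21.7 TPM in the JUN knockout libraries, against 43.1, 38.4 and 22.5 TPM in the double knockout. Library 3 was the lowest of each group. It was 2.63-fold to 6.90-fold above ATF3, its close relative, within a library. BATF3 (ENSG00000123685, chromosome 1, 212686418 to 212699985, minus strand), a factor known from dendritic cell development, was at 7.80, 8.38 and 4.50 TPM and at 9.16, 13.1 and 5.82 TPM. It too was lowest in library 3 of each group, and the groups of both genes overlapped.

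Averaged over the 6 libraries, the order of levels was JUND at 368 TPM, JUNB at 50.5, FOSL2 at 45.7, JDP2 at 32.7, BATF3 at 8.12, ATF3 at 7.63, FOSL1 at 5.94, FOS at 5.52, JUN at 5.26 and FOSB at 0.219 TPM. Between neighbours in this order, the ranges over libraries were apart in 3 places: JUND over JUNB by 7.29-fold, JDP2 over BATF3 by 4.02-fold and JUN over FOSB by 24.1-fold. FOSL2 was above JDP2 in 6 of 6 libraries although the ranges overlapped. JUNB was above FOSL2 in 4 of 6. Both counts rest in part on FOSL2-204, a transcript of 393 bases with 0.404% of FOSL2's reads. It gave 16.8 TPM in JUN knockout library 1 and 13.1 TPM in double knockout library 2, the libraries where FOSL2 was above JUNB. FOSL2-201, with 93.8% of the reads, was there at 38.8 and 44.1 TPM, below JUNB. In double knockout library 1 FOSL2-204 gave 8.20 TPM and FOSL2-201 37.5 TPM, against 43.1 TPM for JDP2. The 5 genes from BATF3 to JUN lay within the spread of their neighbours, and each was above the next in 3 or 4 of the 6 libraries.

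**Figure D1:**
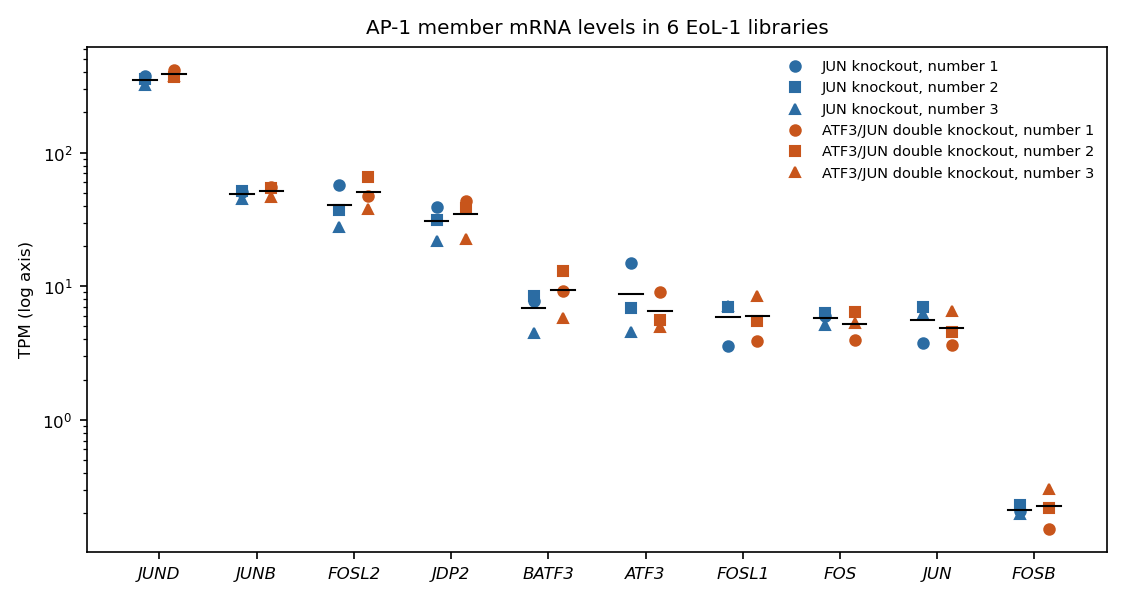
TPM of each member in each library on a log axis, with blue for JUN knockout, orange for double knockout, a marker shape for each library number and a black bar for the group mean. JUND lies 7.29-fold above JUNB, 5 genes from BATF3 to JUN lie close together, and the groups overlap for all 10 members.

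The double knockout was then compared with the JUN knockout on counts. None of the 8 members that were not targeted rose in the double knockout by edgeR's quasi-likelihood test with Benjamini-Hochberg adjustment over all genes. JUN and ATF3 did not pass either, so the count was 0 of 10 members against a background of 0% of the 12954 genes tested. At an unadjusted p under 0.05 it was 0 of 10 members, against 5.81% of all genes. DESeq2 called 0 of 10 members, against 0.548% of all genes, and limma-voom called 0 of 10, against 4 of 12954 genes. The CPM values (counts scaled to a common library total after TMM scaling) of the groups overlapped for all 10 members. Of all genes, 12.3% had groups that did not overlap, 6.31% with the double knockout higher and 5.94% with it lower. Of the 8 remaining members 7 had a log2 fold change above 0, with a median of 0.11, where 50.7% of all genes were above 0 with a median of 0.0032.

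The 95% intervals of this fit were as follows. JUND was at 515, 530.3 and 487 CPM in the JUN knockout libraries, against 629, 524 and 550.1 CPM in the double knockout, highest in double knockout library 1. Its log2 fold change was 0.15 (SE 0.09, edgeR adjusted p = 0.919), and the upper end of its 95% interval was 1.29-fold. JUNB was at 86.3, 96.7 and 86.1 CPM and at 101, 94.6 and 87.9 CPM, and its log2 difference was 0.08 (SE 0.09, edgeR adjusted p = 0.968) with an upper end of 1.22-fold. JUND and JUNB had the narrowest intervals of the 10 members. The upper ends were 1.36-fold for FOS, 1.58-fold for FOSL2, 1.73-fold for JDP2, 1.86-fold for FOSB, 1.93-fold for FOSL1 and 2.39-fold for BATF3, so for BATF3 a doubling was within the interval. With the replicate number as a block the upper ends were lower, at 1.18-fold for FOS, 1.46-fold for FOSL2, 1.25-fold for JDP2, 1.31-fold for FOSL1 and 1.74-fold for BATF3.

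FOSL2 had the lowest p of the members. FOSL2 was at 278, 238 and 203 CPM in the JUN knockout libraries, against 294, 339 and 262 CPM in the double knockout. JUN knockout library 1 was above double knockout library 3, and the other double knockout libraries were above all of the JUN knockout. The log2 fold change was 0.32 (SE 0.15, unadjusted p = 0.0666, adjusted p = 0.887, edgeR). BATF3 was at 5.62, 6.15 and 3.35 CPM and at 6.55, 9.63 and 4.42 CPM. Its log2 fold change was 0.44 (SE 0.34, edgeR adjusted p = 0.942). ATF3 was at 20.2, 13.7 and 8.89 CPM and at 13.1, 10.0 and 7.63 CPM, and its log2 difference was −0.48 (SE 0.32, edgeR adjusted p = 0.931). In CPM, 3 of 3 pairs of equal number had more FOSL2 and more BATF3 in the double knockout, as held for 18.0% of all genes, and 3 of 3 had less ATF3, as held for 15.1%. In TPM, which is scaled for transcript length, FOSL2 was lower in pair 1 and ATF3 was higher in pair 3, and BATF3 alone of these genes kept its direction in 3 of 3. Short transcripts with few reads entered both turns. In pair 1 FOSL2-204 (393 bases) was at 16.8 TPM in the JUN knockout and 8.20 TPM in the double knockout. FOSL2-201 was at 38.8 and 37.5 TPM there. In pair 3 ATF3-210 (581 bases) was at 0 and 1.33 TPM, and ATF3-202 at 3.45 and 2.95 TPM. With an offset for transcript length the unadjusted edgeR p was 0.245 for FOSL2, 0.241 for BATF3 and 0.373 for ATF3.

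With the replicate number as a block, edgeR gave FOSL2 a log2 fold change of 0.32 (interval 0.09 to 0.55, unadjusted p = 0.0133, adjusted p = 0.416). ATF3 was at −0.44 (−0.73 to −0.14, unadjusted p = 0.00988, edgeR adjusted p = 0.394) and BATF3 at 0.43 (0.05 to 0.80, unadjusted p = 0.0321, edgeR adjusted p = 0.488). So 3 of 10 members had an unadjusted p under 0.05, against 9.79% of all genes, and 0 of 10 passed after adjustment, against 0%. The pair differences of FOSL2 were 0.08, 0.51 and 0.37 on the log2 scale, and those of ATF3 −0.63, −0.44 and −0.22. An exact permutation test of the 6 CPM values, two-sided, gave p = 0.2 for FOSL2 and p = 0.4 for ATF3, where 3 against 3 cannot go below 0.1.

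**Figure D2:**
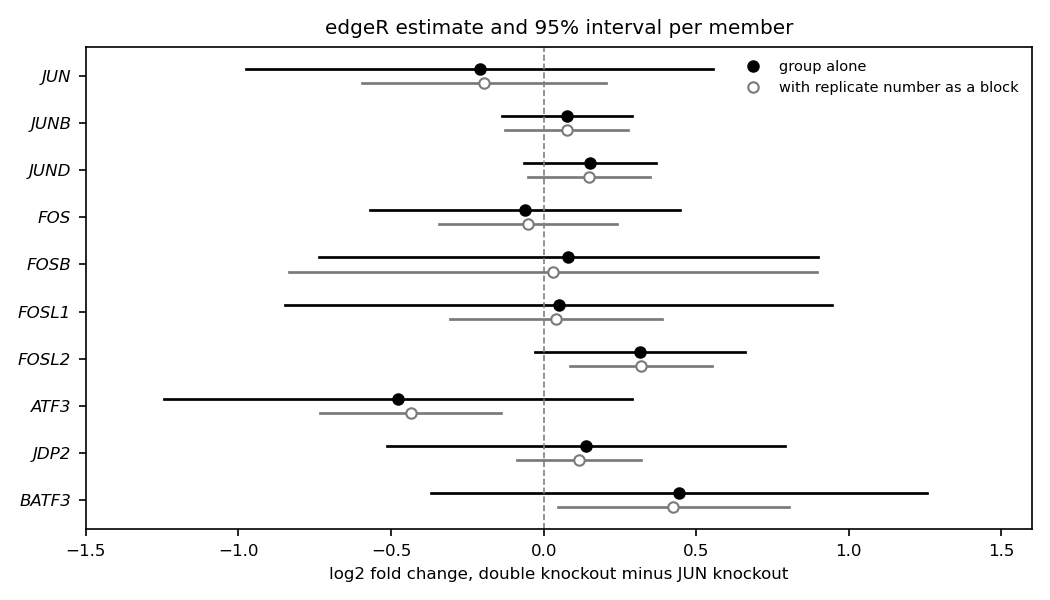
Log2 fold change of each member, double knockout minus JUN knockout, with its 95% interval from edgeR, for the group alone (black) and with the replicate number as a block (grey). All 10 black intervals include 0, and the grey ones of FOSL2, ATF3 and BATF3 do not.

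The libraries were next compared by number, which stands for the shared JUN clone code. For JDP2 edgeR separated the library numbers once the group was taken into account (adjusted p = 0.0257). JDP2 was at 57.9 and 67.1 CPM in the libraries numbered 1, at 50.0 and 56.6 CPM in those numbered 2 and at 35.2 and 34.1 CPM in those numbered 3, each with the JUN knockout first. Number 3 was lowest in both groups and number 1 highest, and number 3 was below number 1 by a log2 difference of −0.85. That made 1 of 10 members called between numbers, against 1.75% of all genes. The call was lost without JUN knockout library 3 (adjusted p = 0.0536), without double knockout library 3 (0.203) and with an offset for transcript length (0.117), all in edgeR. At an unadjusted p under 0.05 the count was 6 of 10 members, against 20.0% of all genes. Across single libraries left out, 0 to 5 members were called, none without either library numbered 3. The 5 came without double knockout library 1, where 19.9% of all genes were called.

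JUN and FOSL1 had their lowest values in the libraries numbered 1, although neither passed the test between numbers. JUN was at 13.2 and 13.8 CPM in number 1, at 27.2 and 16.6 CPM in number 2 and at 24.6 and 25.7 CPM in number 3. Both libraries of number 1 were the lowest of the 6, though double knockout library 2 was close to them. FOSL1 was at 5.26 and 5.87 CPM in number 1, at 10.1 and 8.41 CPM in number 2 and at 11.4 and 13.4 CPM in number 3. It was lowest in both libraries of number 1 and highest in both of number 3. The edgeR adjusted p between numbers was 0.129 for JUN and 0.0526 for FOSL1, with log2 differences of 0.89 and 1.16 between numbers 3 and 1. FOS was also lowest in number 1, at 7.79 and 7.72 CPM against 9.74 to 12.4 CPM in the other 4 libraries (edgeR adjusted p = 0.16).

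ATF3 and BATF3 had their lowest values in the libraries numbered 3, and they did not pass either. For ATF3 the edgeR adjusted p between numbers was 0.0526, with a log2 difference of −0.98 between numbers 3 and 1, and for BATF3 it was 0.0883, with −1.01 between numbers 3 and 2. The 4 remaining genes did not pass, with edgeR adjusted p of 0.267 for FOSL2, 0.687 for JUND, 0.704 for JUNB and 0.784 for FOSB. In 6 of 10 members both libraries of 1 number were the lowest or the highest of the 6, where 47.9% of all genes were. JUNB and JUND varied least, with a coefficient of variation of CPM over the 6 libraries of 6.80% and 9.01%, while ATF3, BATF3, FOSL1 and JUN lay between 31.3% and 37.1%. The median gene was at 13.2%.

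**Figure D3:**
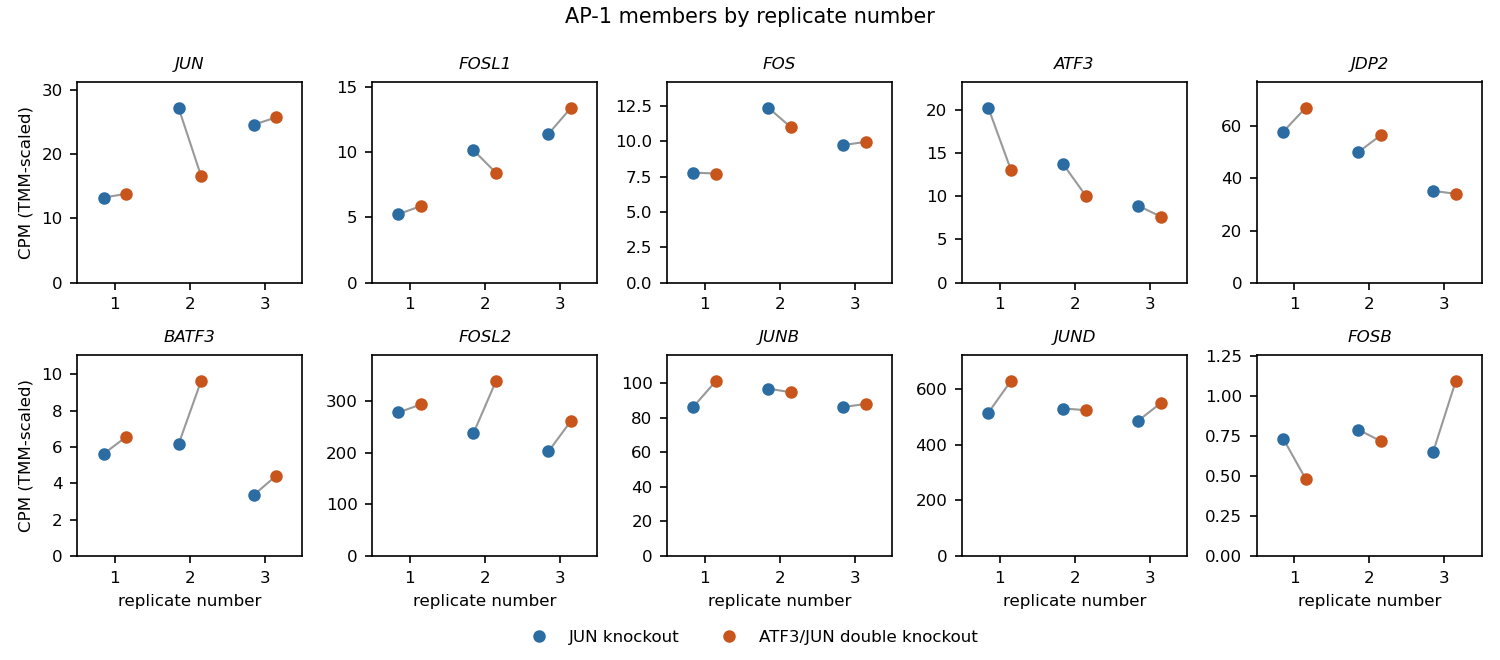
CPM of each member by library number, with the JUN knockout in blue, the double knockout in orange and a line joining the same-numbered pair. JDP2, ATF3 and BATF3 are lowest in both libraries of number 3, JUN, FOSL1 and FOS are lowest in both of number 1, and JUNB and JUND change little.

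The monocyte and eosinophil marker sums were low where JUN was low, while the lymphoid and neutrophil sums did not follow JUN. The lymphoid sum was lowest in JUN knockout library 2, at 142 TPM, where JUN was highest. The neutrophil sum was highest in double knockout library 1, at 41.01 TPM, where JUN was among its lowest. The monocyte sum was 120, 290 and 276 TPM in JUN knockout libraries 1, 2 and 3, against 140, 200.0 and 334 TPM in double knockout libraries 1, 2 and 3. It was lowest in the 3 libraries where JUN was lowest, and so was the eosinophil sum, at 74.3, 152 and 124 TPM in JUN knockout library 1 and double knockout libraries 1 and 2 against 171 to 198 TPM in the others. The monocyte sum was mostly LYZ and the eosinophil sum mostly RNASE2. Of the 3 eosinophil markers past the filter, RNASE2 and RNASE3 were lowest in those 3 libraries. CSF2RB was not, and its lowest values were 3.58 TPM in JUN knockout library 3 and 3.62 TPM in double knockout library 3. CD68, at 25.9 to 38.7 TPM, and CSF1R, at 7.33 to 12.9 TPM, were not lowest in those 3 libraries, and CD14 was at or near 0. The part of these cells or genes in the result was not tested. Among the members themselves, log2 CPM over the 6 libraries of JUN and FOSL1 had a Pearson r of 0.934, and that of FOSL2 and BATF3 an r of 0.878. FOSL1 and JDP2 went opposite ways (r = −0.882). These coefficients describe 6 libraries that share clone codes, and they are given without a test. Of 8885 genes with a mean of at least 10 CPM, those most like JUN were FASTKD2 (r = 0.993) and MIGA2 (0.992), and those most like ATF3 were ATG4D (0.991) and VAV1 (0.984). For JUND they were SDHAF4 (0.977) and SLC45A4 (0.969), for FOSL2 LRRC8C (0.993) and AP3M1 (0.991), and for JUNB ZNF787 (0.975) and TRMT1L (0.974). Picked as the highest of 8885 genes over only 6 libraries, these coefficients are high by selection and were not tested.

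Genes often reported together with ATF3, mostly from the response to amino acid shortage and unfolded protein, were read beside ATF3. Between the genotypes 0 of 11 passed edgeR's test, with 10 above 0 and a median log2 fold change of 0.14. Of all genes 50.7% were above 0. Between library numbers 6 of 11 passed, against 1.75% of all genes: ASNS, CHAC1, DDIT4, PPP1R15A, SESN2 and TRIB3. This count was not planned, and the list was chosen with earlier results of these data known. It describes the list and is no test of it. Of the genes on the other lists, ATF5, CEBPB and DDIT3 passed between numbers too. CHAC1, which encodes an enzyme that degrades glutathione, was at 60.2 and 67.9 CPM in number 1, at 46.7 and 52.6 CPM in number 2 and at 22.5 and 22.5 CPM in number 3 (edgeR adjusted p = 0.00357). TRIB3, which encodes a pseudokinase induced by ATF4, was at 161 and 175 CPM, at 48.4 and 79.9 CPM and at 38.8 and 34.2 CPM (edgeR adjusted p = 0.0221). SESN2, a stress sensor of the amino acid response, was at 101 and 106 CPM, at 77.3 and 89.9 CPM and at 46.3 and 48.5 CPM (edgeR adjusted p = 0.00787). CHAC1, TRIB3 and SESN2 were highest in both libraries of number 1 and lowest in both of number 3, and so was JDP2. ATF3 had the same lowest pair, but JUN knockout library 2 was above double knockout library 1. GADD45A, GADD45B, KLF4, KLF6 and ID1 did not pass between numbers, with edgeR adjusted p from 0.147 to 0.997. CHAC1, SESN2 and DDIT4 stayed past the threshold with each library left out in turn. TRIB3 lost its call without library 1 of either group. The count was 4 of 11 without double knockout library 3 and 4 of 11 with the length offset.

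**Figure D4:**
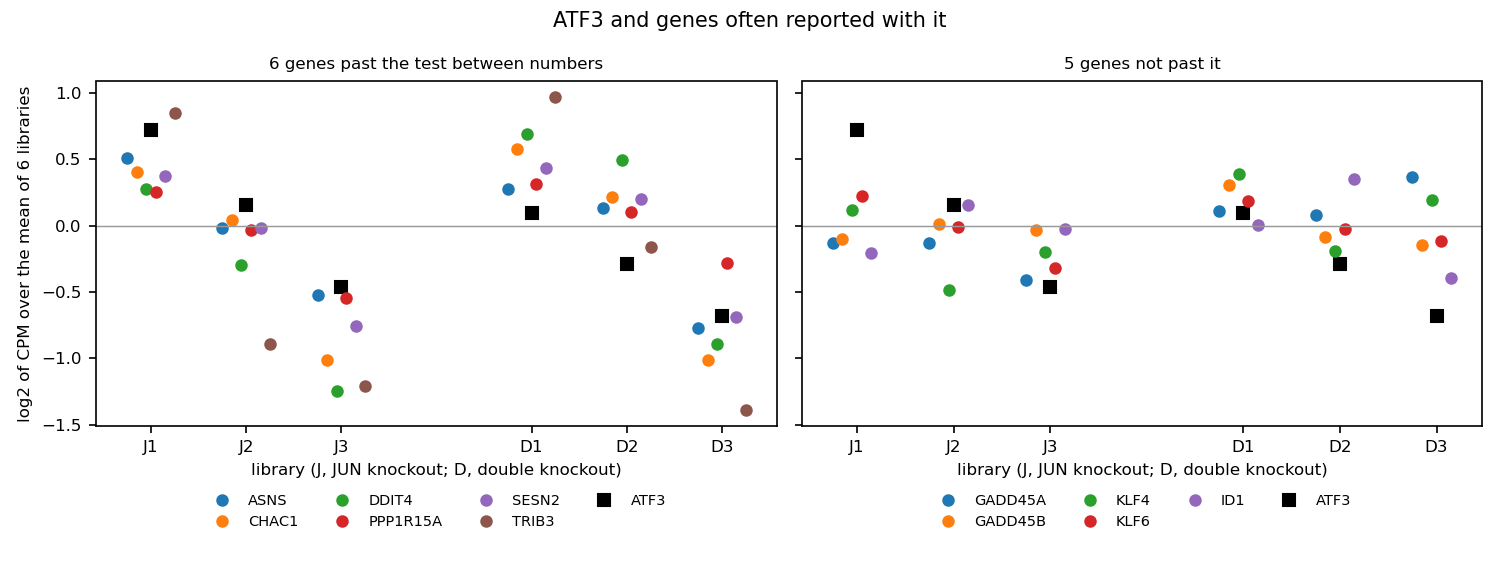
Log2 of CPM over the mean of the 6 libraries for ATF3 (black squares) and 11 genes often reported with it (circles), 1 column of points for each library. In the left panel the 6 genes that passed between numbers are low in libraries 3 of both groups, as is ATF3. In the right panel KLF6 is lowest in the same libraries, while GADD45A, GADD45B, KLF4 and ID1 are not.

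The transcripts that carried each gene were next described. JUN and JUNB have 1 annotated transcript each, and JUND-201 carried 94.4% to 95.8% of the reads of JUND. FOSL2-201 carried 90.1% to 97.1%, FOSL1-201 82.8% to 94.1%, BATF3-201 83.0% to 93.8% and JDP2-201 79.5% to 87.4% of their genes. The next transcripts were FOSL1-203 with 4.49% to 17.2%, BATF3-203, annotated as a processed transcript, with 6.17% to 17.0%, and JDP2-202, which starts upstream of JDP2-201, with 5.51% to 13.3%. FOS-201 carried 76.2% to 95.3%, and FOS-208, which starts further downstream, none to 13.9%. In FOSB the leading transcript changed from library to library at 12 to 31 reads, and its transcripts are not described further. Of 57 member transcripts 22 were tested, and edgeR called 0 between the genotypes, against 0% of 49298 transcripts. At an unadjusted p under 0.05 the count was 0 of 22, against 5.93%, and the lowest edgeR adjusted p was 0.897. The error of assigning reads to transcripts is not in the files.

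ATF3 has transcripts from starts far apart, and most reads came from 1 region of starts. The distal start on chromosome 1 at 212565334, with 2 transcripts, had 0 estimated reads in all 6 libraries. By counting error alone this allows a share of up to 0.545% to 1.39% of the gene's reads. The error of assigning reads between transcripts is not in that limit. The 4 transcripts that start between 212608628 and 212608915, 43294 bases downstream, carried 89.6% to 98.9%. A further 5 transcripts, which start between 212613436 and 212615178, carried 1.10% to 10.4%. ATF3-202, a protein-coding transcript of the region with most reads, carried 59.8%, 66.6% and 79.7% in the JUN knockout and 54.2%, 83.5% and 78.0% in the double knockout. ATF3-211, which is also protein-coding, carried 22.0%, 22.3% and 13.0% and then 24.3%, 5.27% and 0%, where 0 reads allow up to 1.39% by counting error alone. It was low in double knockout libraries 2 and 3 and at the level of the JUN knockout in library 1. ATF3-208, annotated as retaining an intron, carried 6.50%, 9.47% and 4.74% and then 11.1%, 10.1% and 13.8%. It rested on 10.9 to 36.0 estimated reads a library, which overlapped between the groups, and the transcript test did not call it.

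**Figure D5:**
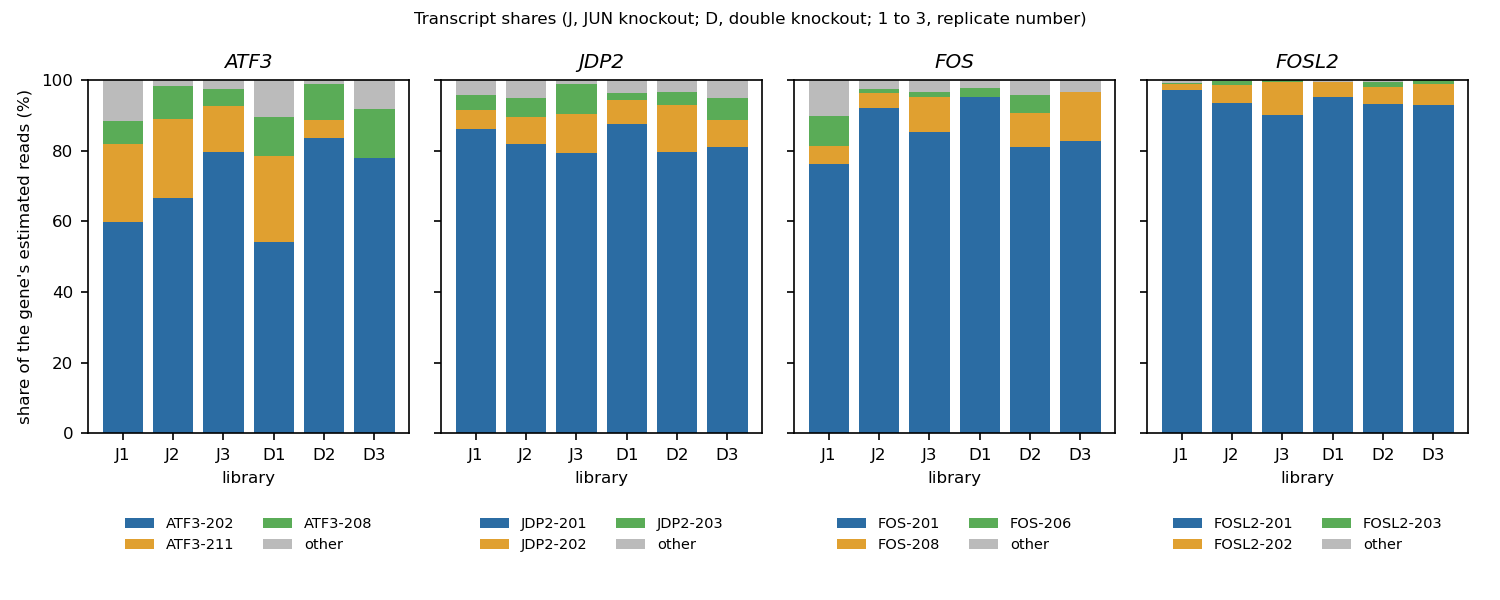
Share of each gene's estimated reads, in percent, by transcript for ATF3, JDP2, FOS and FOSL2, with 1 stacked bar for each library and the remaining transcripts in grey. JDP2-201 and FOSL2-201 dominate in all 6 libraries, while the share of ATF3-202 runs from 54.2% to 83.5%.

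The regions just upstream of the members' starts were searched for AP-1 and related motifs, because several members are known to act on their own family's promoters. RefSeq promoters (GRCh38.p14) were matched for 8 of 10 members, all but FOSL1 and BATF3, in 11 windows of 250 bases before the start. In these windows 3 members held a motif. No window lay at the ATF3 starts from 212608628 to 212608915 or at the JDP2-201 start at 75432134. The starts with most reads of these genes were therefore not searched. The search covered TGACTCA and its reverse complement, present in 4.20% of 35116 promoters, TGACGTCA, in 1.65%, and TGACATCA and its reverse complement, in 2.37%. The 3 stretches are printed 5′ to 3′ on the gene's strand with the motif in capitals.
JUN (chr1:58784097-58784124, minus strand, 67 bases before the RefSeq start): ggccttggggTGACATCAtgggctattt
ATF3, distal start (chr1:212565274-212565301, plus strand, 123 bases before the start): acctatgataTGACATCAtatggccact
JUND (chr19:18281805-18281832, minus strand, 200 bases before the start): gccgcccccaTGACGTCAacccacaagg

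The JUN match lies inside the first exon of the GENCODE transcript, whose start is further upstream than the RefSeq one. The ATF3 match belongs to the distal start, which had 0 reads here. A match describes letters in a window and no binding was measured.

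Genes around the AP-1 proteins were compared between the genotypes as well, and edgeR called 0 members of every list, against 0% of all genes. Of all genes tested 50.7% had a log2 fold change above 0, with a median of 0.0032. The counts above 0 in each list were not tested. Of 17 kinases that phosphorylate AP-1 proteins or activate those kinases, 12 were above 0 and 5 below, with a median log2 fold change of 0.05. Of 12 tested MAPK phosphatases and feedback inhibitors 9 were above 0 (median 0.14), and of 7 genes for the turnover of AP-1 proteins 5 were (median 0.03). Of 12 tested factors that induce FOS and JUN, 8 were above 0 (median 0.09). Of 11 tested AP-1 and CREB factors outside the members 6 were above 0 (median 0.03), and the stress factor ATF4 had the highest level, with 646 ± 81.4 CPM under the JUN knockout label and 620 ± 121 CPM under the double knockout label (SD, n = 3 each). Of 14 tested textbook AP-1 target genes 6 were above 0 and 8 below (median −0.05).

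Of 19 other tested factors with the same type of DNA-binding domain, 16 were above 0, against 50.7% of all genes. The median of the 19 was 0.12. MAFG, a small MAF protein that pairs with NRF factors, had the lowest p among them, with 120 ± 10.5 CPM in JUN knockout libraries against 153 ± 19.1 CPM in double knockout libraries (SD, n = 3 each). Its log2 fold change was 0.36 (SE 0.12, edgeR adjusted p = 0.789). Of 9 tested partners at composite AP-1 sites 7 were above 0 (median 0.06). RUNX1, a blood cell factor with the highest CPM and the lowest p among them, was at 318 ± 30.8 and 394 ± 16.4 CPM (log2 fold change 0.31, SE 0.09, edgeR adjusted p = 0.789). Among the target genes SPP1, which encodes osteopontin, was at 1.66 ± 0.411 and 0.792 ± 0.324 CPM (−1.06, edgeR adjusted p = 0.798). None of these 3 genes passed the test.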

How the data were processed

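PolyA RNA was sequenced from 3 JUN knockout and 3 ATF3/JUN double knockout libraries made with a stranded kit. Per the submitters' processing notes, the named tools are FastQC (0.11.9) and Salmon (1.6.0), and the build is hg38. The authors deposited an expected count (estimated reads) and a TPM value for each of 177456 transcripts, per the file headers. Salmon shares out reads that fit several transcripts, so transcript values carry assignment error.

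Transcripts were joined to GENCODE release 29 by Ensembl identifier, and 167027 (94.1%) matched. The rest held 3.58% to 3.71% of reads and were left out. For each gene the expected counts of its transcripts were added up and then rounded, and TPM values were added up too. The main test was edgeR 4.0.16 (R 4.3.3), with its quasi-likelihood F test, filterByExpr, TMM scaling, the group as single term and two-sided Benjamini-Hochberg adjustment over 12954 genes at 0.05. Library numbers were tested together beside the group. Intervals for a share at 0 use 3 reads and cover counting error only. Alternatives were RLE, other filters, DESeq2 1.42.0, limma-voom (limma 3.58.1), a length offset, a replicate block and left-out libraries. The procedure was tested on simulated data. No 2 libraries looked alike enough to be 1 library: the chi-square per gene was 12.3 at its lowest.

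Same-numbered libraries were taken as pairs because the library names share a JUN clone code and because their departures from the group mean correlated at 0.387, 0.103 and 0.523. Library 2 of the JUN knockout also correlated at 0.103 with double knockout library 3, and library 1 at 0.201 with double knockout library 2. These correlations come from the same values that were then tested between numbers, so they give no separate ground for the pairing. By chi-square per gene, JUN knockout library 2 was at 30.4 from double knockout library 2. It was at 13.5 from JUN knockout library 3 and at 20.2 from double knockout library 3. JUN knockout library 1 was at 22.3 from double knockout library 1 and at 21.6 from double knockout library 2.

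The members and lists were chosen with earlier results of these data known. All 10 members were named. From each other list the gene with the highest CPM or the tested gene with the lowest p could be named, transcripts with at least 5% of a member's reads were described except for FOSB, and for JUN, ATF3 and the 3 other members with the highest CPM the 2 most alike genes were named. CHAC1, TRIB3 and SESN2 were named as examples after their values were seen.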

Additional observations from a re-analysis of the deposited data

How the results depend on the processing

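No member was called between the genotypes under any of the alternatives, and the lowest adjusted p was 0.394 (ATF3, replicate block). Over the other settings 68 of 69 log2 fold changes kept their direction, and FOSL1 turned to −0.008 with the transcript length offset. With libraries left out, 12 of 90 turned. With 1 library left out the ranges were −0.725 to −0.14 for ATF3, 0.12 to 0.682 for BATF3, 0.209 to 0.437 for FOSL2, 0.073 to 0.207 for JUND, 0.025 to 0.126 for JUNB and −0.509 to −0.019 for JUN. FOS ran from −0.209 to 0.119, FOSB from −0.27 to 0.32, FOSL1 from −0.322 to 0.289 and JDP2 from −0.075 to 0.373. Leaving out both libraries numbered 1 turned JUNB to −0.002, both numbered 2 turned JUN to 0.058 and FOS to 0.004, and both numbered 3 turned FOSB to −0.345 and FOSL1 to −0.113. The 0 genes called by edgeR became 1 with no low-count filter, 71 with DESeq2 and 4 with limma-voom, and with libraries left out 0 to 1, the 1 without replicate 3 of both groups. With the replicate block the count was again 0 genes and 0 transcripts, and the pairing changed no call. The 0 transcripts called stayed at 0 with libraries left out.

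Between library numbers 227 genes were called, 686 with no filter and 61 with the length offset, the latter added after seeing the data. With no filter the edgeR adjusted p was 0.0137 for ATF3, 0.0123 for FOSL1 and 0.0447 for BATF3, so these 3 members would then be called beside JDP2. Leaving out 1 library, also added after seeing the data, gave 141 to 2634 genes. The count was 141 when double knockout library 3 was dropped, 2634 for double knockout library 1, 644 for JUN knockout library 1 and 408 for JUN knockout library 2. Each such fit leaves 1 number with a single library, assumed to vary like the others. For JDP2 the adjusted p ran from 0.000321 to 0.203. The share of JUN in its family, 1.26% on average, ran from 1.18% to 1.36% with libraries left out and was 1.67% from reads over transcript length. Of the 11 genes often reported with ATF3, 4 to 6 were called between numbers under the alternatives. Depth limited FOSB, with 12 to 31 reads, and the transcripts of ATF3.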
